A study of Mus musculus with 8 samples.

Results

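The genes described here encode the intermediate filaments and the nuclear lamina of muscle cells, namely Des, Vim, Nes, Synm, Sync, Lmna, Lmnb1, Lmnb2 and Plec. These genes, and the comparison and marker lists used below, were chosen by name with earlier results of these data known. The H3K56ac peaks considered were those that touched one of these 9 genes or the 20 kb on either side of it. This took in 87 of the 105600 peaks of the merged list, and the genes are 9 of the 21938 protein-coding genes of the annotation. H3K56ac, a mark of histone H3 acetylated at lysine 56, had been mapped by ChIP-seq (sequencing of immunoprecipitated chromatin) in muscle stem cells, or MuSCs, which lie under the basal lamina of muscle fibres and repair them. All MuSCs were freshly isolated by flow sorting from mice on a C57BL/6 background. The Control libraries are labelled wild type. The study also describes Cre-negative littermates as controls, so whether these Control animals carried floxed alleles is not clear. Sirt6mKO animals carried floxed alleles of Sirt6, which encodes a deacetylase of H3K56ac, together with a constitutive Cre driven by the Pax7 locus, so that recombination took place in the myogenic lineage. The labels list 8 libraries in 4 groups, with 2 H3K56ac libraries and 2 libraries of input chromatin for each genotype. The ages and the number of mice behind a library were not given in the labels.

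The material consisted of 1 merged list of MuSC intervals, with a start and an end for each peak and no value per sample. It does not name the libraries that were merged and does not separate the genotypes, so Sirt6mKO and Control were not compared, no replicate error can be attached to a width, and the sequencing depth behind a peak is unknown. Every value below is therefore a description of the merged list, set beside the same quantity over all protein-coding genes where that was computed. The study reports more H3K56ac peaks in Sirt6mKO than in control MuSCs and describes broad peaks after loss of Sirt6. How far Sirt6mKO libraries shaped the number and width of the merged peaks was not tested. The marker genes of MuSCs (Pax7, Myf5, Calcr, Vcam1, Itga7, Cdh15) had a promoter peak in 6 of 6 cases, with widths of 7972 to 30239 bp. Of 3 endothelial markers 2 had one, of at most 3440 bp, and of 3 haematopoietic markers 2 had one, of at most 2636 bp. The markers without one were Cdh5 and Ptprc. The peaks measured 3440 bp at Pecam1, 1139 bp at Kdr, 2636 bp at Cd68 and 1786 bp at Csf1r. The 3 fibro-adipogenic markers had promoter peaks of 2063 to 5233 bp and the 5 myofibre markers of 854 to 4349 bp. Presence of a promoter peak alone did not set the MuSC markers apart from the fibro-adipogenic and myofibre ones. According to the study, sorted MuSCs that were analysed again were not fully pure. How much other cells contributed to the peaks described here was not tested.

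Intermediate filaments are rope-like polymers of coiled-coil proteins. In muscle, desmin links the myofibrils to one another, to the nuclei and to the sarcolemma, vimentin and nestin are the filament proteins of myogenic precursor cells, and synemin and syncoilin join desmin filaments to the dystrophin-associated complex and other anchoring sites. The lamins are the nuclear branch of the same family and form the meshwork under the inner nuclear membrane, whereas plectin is a large linker of the plakin family that ties desmin filaments to Z-discs, costameres, mitochondria and nuclei. Mutations in DES, LMNA and PLEC cause muscle diseases in humans.

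The proximal promoters of 7 of the 9 genes matched the RefSeq promoter table (GRCm38.p6), and 8 of their 9 promoter windows of 250 bp before the RefSeq start lay wholly inside an H3K56ac peak, compared with 43.0% of the 32851 windows of the table. Lmnb1 and Plec were not matched. Promoters of 4 genes are printed because they carried widely different numbers of CG dinucleotides and lay in peaks of very different width. They are written 5′ to 3′ on the strand of the gene, without bases of annotated exons, and capitals mark CG dinucleotides.
Des, chr1:75360042-75360291, plus strand: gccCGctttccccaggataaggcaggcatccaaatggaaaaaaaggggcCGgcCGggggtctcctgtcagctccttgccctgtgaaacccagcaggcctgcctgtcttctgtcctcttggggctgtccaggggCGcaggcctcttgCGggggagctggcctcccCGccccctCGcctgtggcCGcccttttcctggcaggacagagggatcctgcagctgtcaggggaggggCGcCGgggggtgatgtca
Nes, chr3:87970843-87971077, plus strand: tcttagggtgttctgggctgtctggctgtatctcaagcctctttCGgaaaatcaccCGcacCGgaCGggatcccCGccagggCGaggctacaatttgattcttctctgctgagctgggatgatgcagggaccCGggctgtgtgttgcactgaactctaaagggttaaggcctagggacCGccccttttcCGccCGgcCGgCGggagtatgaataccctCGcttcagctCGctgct
Synm, chr7:67759743-67759992, minus strand: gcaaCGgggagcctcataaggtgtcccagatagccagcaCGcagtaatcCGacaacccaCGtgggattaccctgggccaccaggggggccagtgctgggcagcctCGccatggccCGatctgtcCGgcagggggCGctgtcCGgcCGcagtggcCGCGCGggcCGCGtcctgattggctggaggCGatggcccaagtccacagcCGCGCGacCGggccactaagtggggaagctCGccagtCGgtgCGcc
Lmna, chr3:88503387-88503602, minus strand: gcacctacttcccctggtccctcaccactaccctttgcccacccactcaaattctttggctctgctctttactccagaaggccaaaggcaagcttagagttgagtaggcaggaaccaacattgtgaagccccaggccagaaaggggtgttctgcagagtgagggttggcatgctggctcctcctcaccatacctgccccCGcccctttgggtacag

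The stretch before Des held 10 CG dinucleotides, that before Nes 14, that before Synm 23 and that before Lmna 1. The median over all promoters of the table was 6 per 250 bp, with quartiles of 2 and 16. Over the full 250 bp and at the start nearest the reference TSS, Lmna with 1, Vim with 8 and Des with 10 CG dinucleotides lay in peaks of 5967, 10760 and 9745 bp. The 250 bp of Vim lie inside annotated exon 1. The other 4 genes, Lmnb2 with 14, Nes with 15, Sync with 19 and Synm with 23, lay in narrower peaks of 3036, 4935, 3955 and 1768 bp. The internal starts of Lmna-202 and Lmnb2-202 did not follow 1 pattern, with 4 CG dinucleotides in a peak of 10379 bp and 5 outside any peak. The order among the 7 genes was seen after the widths were known. A rank correlation between CG count and peak width was computed across 12228 promoters of coding genes whose start lay in a peak. It was positive, at 0.19 (Spearman, across genes, which are not independent replicates), the opposite direction to the order among the 7 genes.

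In the merged list, each of the 9 genes had an H3K56ac peak at its main start. A promoter peak, defined as a peak within 3 kb of any annotated transcription start site (TSS), was present in 9 of 9 genes, compared with 67.8% of all protein-coding genes. The TSS of the reference transcript, the principal isoform with the longest coding sequence, lay inside a peak in 9 of 9 genes (57.9% of all), and the first exon was wholly inside a peak in 9 of 9 (55.2% of all). The 9 genes had 46 distinct annotated TSS positions, of which 39, or 84.8%, fell inside a peak, compared with 53.1% of all TSS positions of protein-coding genes.

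The peak over the reference TSS ranged from 1768 bp at Synm to 10760 bp at Vim, with a median of 5967 bp. Over the 12699 coding genes with such a peak the median was 3439 bp, with quartiles of 2345 and 4892 bp. Of the 9 genes, 7 exceeded that median, and Synm and Lmnb2 lay below it. Vim (10760 bp), Plec (10046 bp) and Des (9745 bp) were wider than 97.3%, 96.8% and 96.5% of these peaks. They were followed by Lmnb1 (6646 bp), Lmna (5967 bp), Nes (4935 bp), Sync (3955 bp), Lmnb2 (3036 bp) and Synm (1768 bp), the last of which exceeded 14.5% of them. Together 5 genes, Des, Vim, Lmna, Lmnb1 and Plec, had a TSS peak of at least 5 kb, compared with 13.6% of all coding genes. That share includes coding genes without a TSS peak. Of the 12699 coding genes with one, 2991 reached 5 kb.

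**Figure D1:**
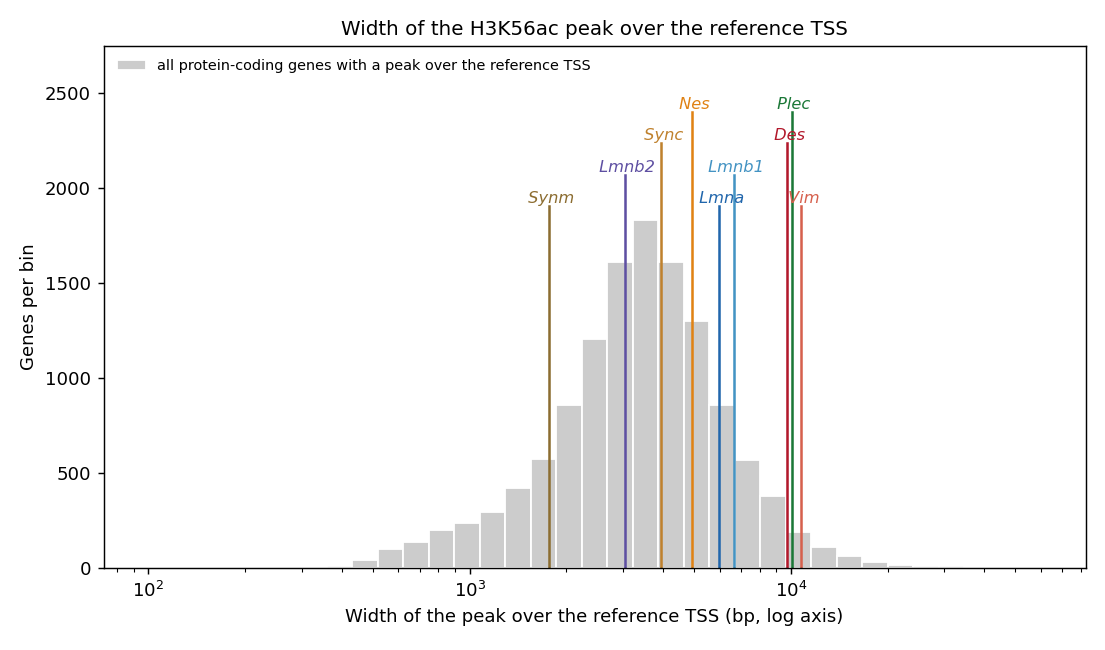
Histogram of the width of the H3K56ac peak over the reference TSS (horizontal axis, bp, log scale) for the 12699 protein-coding genes with such a peak (vertical axis, genes per bin). Coloured lines mark the 9 genes, with Synm at 1768 bp on the narrow side, Lmnb2 near the middle, and Des, Plec and Vim between 9745 and 10760 bp in the wide tail.

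The widest promoter peak was not the TSS peak in 4 genes. At Synm it measured 5165 bp and at Lmna 10699 bp, and in both genes it held another annotated start. At Lmnb1, with 12592 bp, and at Lmnb2, with 3096 bp, it held no start and lay 2880 and 2322 bp from the nearest one. With these, a promoter peak of 5 kb or more was found in 6 of 9 genes (16.5% of all coding genes) and 4 of 9, Vim, Lmna, Lmnb1 and Plec, one of at least 10 kb (2.59% of all). The median widest promoter peak was 9745 bp, compared with 3430 bp over the 14872 coding genes that had any. Of those 14872 genes, 3611 had one of at least 5 kb and 568 one of at least 10 kb. Genes with many annotated starts have more places where such a peak can be found, and Plec alone has 16. At Lmnb1 the nearest start was that of Lmnb1-202, a retained-intron transcript that begins 20628 bp inside the gene. With the reference TSS only, the widest promoter peak was 6646 bp at Lmnb1 and 5967 bp at Lmna. At Vim and Plec the peak of at least 10 kb held the reference TSS.

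Des, which encodes desmin, the filament protein of mature muscle, carried the densest H3K56ac in its surroundings. The gene (chr1:75360329-75368579, plus strand) had a TSS peak of 9745 bp at chr1:75353422-75363166, which began 6907 bp upstream of the TSS, ended 2837 bp downstream of it and held exons 1 to 5. A second wide peak of 7942 bp at chr1:75342799-75350740 lay 9589 to 17530 bp upstream, so that 74.2% of the 20 kb before the gene was covered. This was the highest upstream share of the 9 genes, which otherwise ranged from 6.60% at Synm to 54.1% at Lmna, and the median over all coding genes was 7.56%. Far upstream control of DES is described in humans, and whether this interval corresponds to it was not tested. Inside the gene only a peak of 520 bp followed, in intron 6, and exons 6 to 9 had no peak. Downstream, 3 peaks of 3435, 1851 and 3709 bp lay nearest to starts of Speg, a kinase gene of striated muscle, and the last 2 of them contained Speg starts.

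Vim, which encodes vimentin, the filament protein of mesenchymal and undifferentiated myogenic cells, showed the opposite layout, with a single wide peak and bare surroundings. The peak of 10760 bp at chr2:13568537-13579296 was nearly centred on the TSS, from 5415 bp upstream to 5344 bp downstream, and covered exons 1 to 4 of 9. It held 60.3% of the gene (chr2:13573927-13582826, plus strand). Coverage was complete before the midpoint of the gene and 20.7% after it. The only other peak within 20 kb was an interval of 121 bp at chr2:13599249-13599369, and only 0.605% of the downstream flank was covered. The next peak beyond the window on the 3′ side was a further 145007 bp away, whereas for the other 8 genes the next peak on either side lay 138 to 23314 bp past the window.

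Nes, which encodes nestin, a filament protein of neural and myogenic progenitors, was covered to 62.6%. Its TSS peak of 4935 bp (chr3:87970140-87975074) began 953 bp upstream and ended 3981 bp downstream, so exons 1 to 3 and both introns between them lay inside it. The first and second introns of Nes are known to contain enhancers for muscle precursors and neural progenitors. A gap of 32 bp separated the TSS peak from an upstream peak of 593 bp. A further 3 peaks of 738, 993 and 4522 bp touched the large last exon, which was covered to 37.1%, and the widest of these ran past the 3′ end of the gene. The remaining peaks of the window were nearest to Crabp2, a retinoic acid binding protein gene, and Bcan, which encodes the matrix protein brevican, whose promoter peaks measured 1177 and 996 bp.

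Synm, which encodes synemin, had the narrowest TSS peak of the 9 genes and its widest peak deep inside the gene. The TSS peak of 1768 bp (chr7:67758350-67760117) reached 424 bp upstream and 1343 bp downstream. A peak of 5165 bp at chr7:67738098-67743262 lay 16431 to 21595 bp into the gene, over exon 3 and over the start of the short protein-coding transcript Synm-203. Between these, 5 peaks of 643 to 1393 bp were spaced along introns 1 and 2. The 20 kb before the gene held a single peak of 944 bp and the 20 kb after it a single peak of 1000 bp, the latter nearest to Ttc23. The last exon of 6747 bp, which encodes most of the synemin tail, had no peak.

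Sync, which encodes syncoilin, a filament protein that binds desmin and alpha-dystrobrevin, carried short peaks in rows. The TSS peak of 3955 bp (chr4:129287218-129291172) followed a peak of 1743 bp after a gap of 23 bp, which in turn followed peaks of 1225 and 644 bp after gaps of 407 and 497 bp. If intervals less than 1 kb apart were joined, these 4 peaks gave a block of 8494 bp. A further 5 peaks of 574 to 1507 bp lay within the gene, and 4 of the 5 exons were touched. The last exon was bare.

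Lmna, which encodes lamins A and C, was the most completely covered of the 9 genes. Peaks covered 75.7% of the gene (chr3:88480147-88509956, minus strand), more than in 95.6% of coding genes. Lmna has 7 annotated starts, some of them far apart, and each of the 3 widest peaks of the gene held at least 1. The starts of Lmna-205 and Lmna-207, both retained-intron transcripts, lay 1950 and 207 bp outside a peak. The peak of 5967 bp at chr3:88500542-88506508 held 3 starts, among them the reference TSS. That of 10379 bp at chr3:88487854-88498232 held the start of Lmna-202, which lies 10023 bp downstream. That of 10699 bp at chr3:88507316-88518014 held the start of Lmna-206, which lies 6621 bp upstream. Together with a peak of 1998 bp they formed a run of 4 peaks with gaps of 59 to 807 bp that spanned 30161 bp. Intron 1, 14316 bp long, was covered to 97.8%. Exons 3 to 10, which encode much of the rod and part of the tail, had no peak, and a separate peak of 1586 bp covered exons 11 and 12. The outermost peaks of the window were nearest to starts of other genes, among them Sema4a, a semaphorin gene.

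Lmnb1, which encodes lamin B1, had a similar run of wide peaks at its 5′ end and a second group at its 3′ end. The gene is on chromosome 18 (chr18:56707813-56753424, plus strand). The TSS peak of 6646 bp was followed after 124 bp by a peak of 12592 bp, the widest in any of the 9 windows, and after 192 bp by one of 1090 bp, which gave a joined block of 20644 bp. These peaks filled 90.6% of intron 1, which is 19926 bp long, and the 12592 bp peak touched no exon. Exons 2 to 5 were bare, exons 6 to 8 lay inside peaks of 1945 and 1536 bp, and peaks of 5831 and 4480 bp followed from the 3′ end of the gene into the flank, of which 51.3% was covered. All 9 peaks of the window were nearest to a start of Lmnb1 itself.

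Lmnb2, which encodes lamin B2, carried many narrow peaks and no wide one. Its window held 13 peaks of 385 to 3108 bp. The TSS peak measured 3036 bp (chr10:80917362-80920397), and 7 peaks with gaps of 25 to 613 bp formed a block of 9811 bp around it. A peak of 3096 bp covered exon 2, exons 3 to 11 were bare, and exon 12 was covered to 43.1% by a peak of 2703 bp that also held the start of Timm13, a gene for a mitochondrial import protein. The start of the shorter coding transcript Lmnb2-202 lay 2322 bp from the nearest peak. Upstream, 4 peaks were nearest to Gadd45b, a stress response gene, whose own promoter peak of 3108 bp was the widest in the window.

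Plec, which encodes plectin, has a series of alternative first exons that give isoforms with different cellular targets, and H3K56ac lay over most of them. Of 16 distinct TSS positions, 14 were inside a peak, spread over 5 peaks. The peak of 10046 bp at chr15:76197829-76207874 held 6 of them, among them that of the reference transcript Plec-207. The starts farthest upstream, about 23 to 26 kb before the reference TSS, lay in peaks of 3638 and 1511 bp, those of Plec-208, Plec-216 and Plec-221 in a peak of 789 bp, and that of Plec-201 in one of 1206 bp. The start shared by Plec-203 and Plec-220 lay 430 bp outside a peak and that of Plec-211 lay 1313 bp outside. By contrast, the common 3′ part of the gene was nearly bare. Apart from exon 1, a peak of 1921 bp touched exons 8 to 13 of the reference transcript, and the last 2 exons of 3381 and 7410 bp, which encode the rod and the filament-binding plakin repeats, had none. Only 8.12% of the exonic bases were covered. Parp10 and Grina started in a common peak of 6075 bp upstream of the gene.

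**Figure D2:**
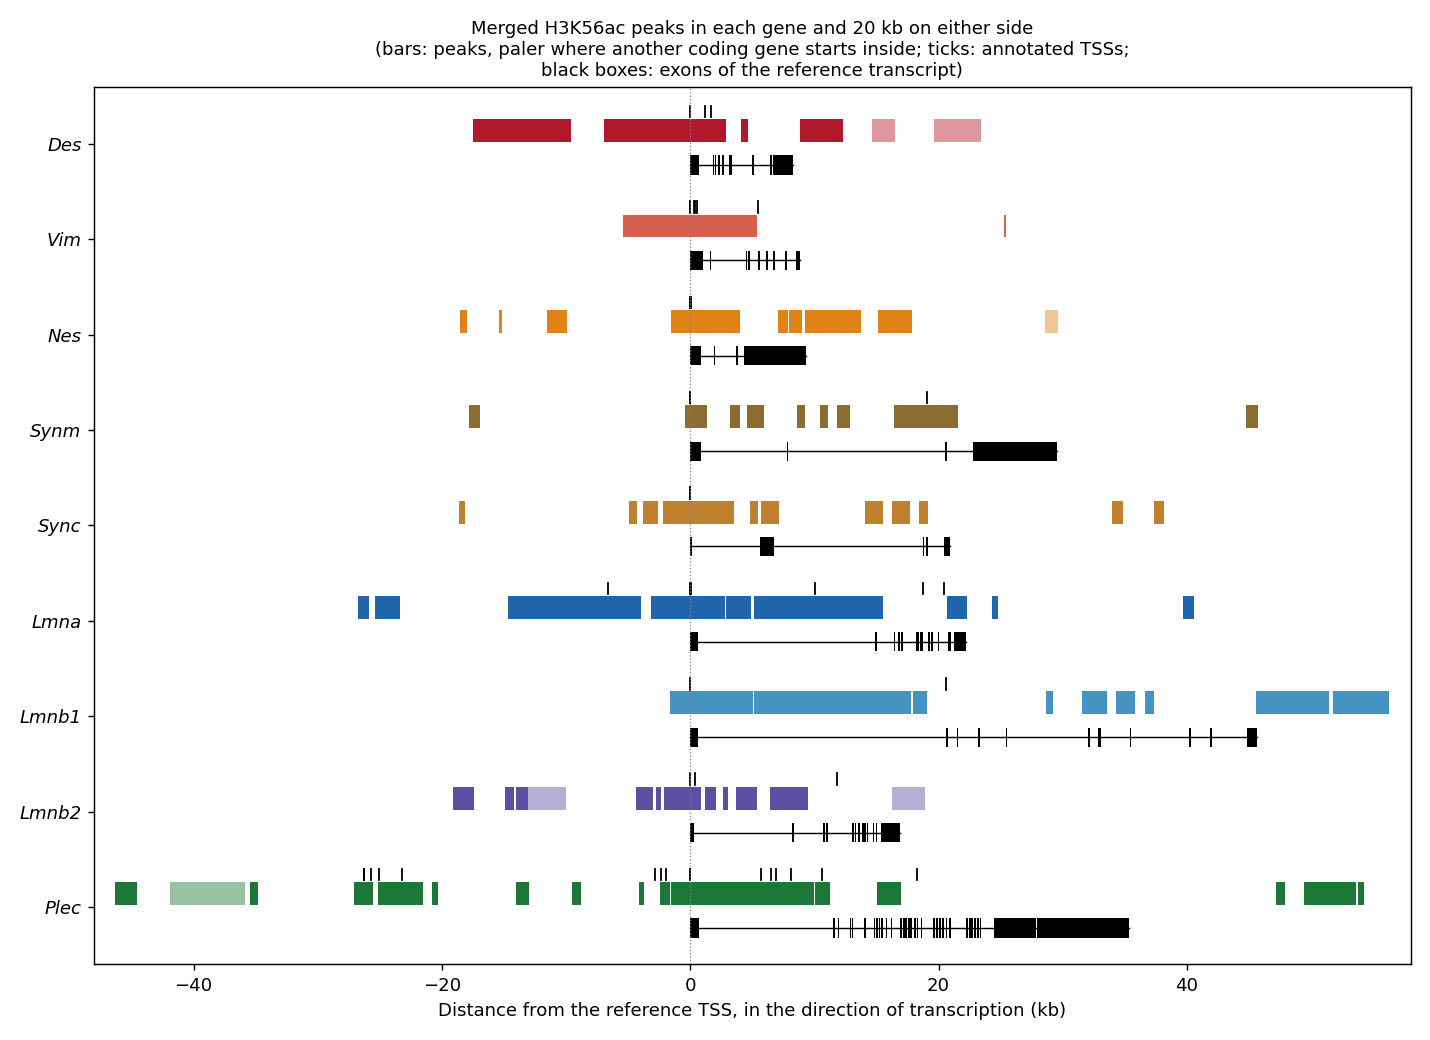
Merged H3K56ac peaks (coloured bars, paler where another coding gene starts inside) in each of the 9 genes and 20 kb on either side, placed by distance from the reference TSS in kb, with transcription running to the right. Ticks above are annotated TSSs and black boxes below are exons of the reference transcript. Wide bars at zero are seen at Des, Vim and Plec, near-continuous runs at Lmna and Lmnb1, and rows of short bars at Synm, Sync and Lmnb2.

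The windows held 2 peaks at Vim, 6 at Des, 9 each at Synm, Lmna and Lmnb1, 10 at Nes, 12 at Sync, 13 at Lmnb2 and 17 at Plec, where the median coding gene had 4. A longer window has room for more peaks, and window length ranged from 48251 bp at Des to 101601 bp at Plec. Counts per kb were not compared with all coding genes. Of the 87 peaks, 50 touched one of the genes, 62 were nearest to a start of one of them and 25 were nearest to the start of another coding gene. Peaks covered 56.4% of the window at Des, 49.7% at Lmna, 41.4% at Lmnb1, 36.5% at Plec, 36.1% at Nes, 35.1% at Lmnb2, 25.3% at Sync, 22.3% at Vim and 19.3% at Synm. The median over all coding genes was 9.53% and the upper quartile 20.6%, so 8 of the 9 genes exceeded the upper quartile and Synm did not. The number of peaks and the covered share did not follow each other, with Des second lowest in number and highest in share.

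Coverage of the gene bodies was lowest at Plec (36.3%), followed by Synm (37.6%), Des (40.7%), Sync (44.5%), Lmnb2 (46.1%), Lmnb1 (51.6%), Vim (60.3%), Nes (62.6%) and Lmna (75.7%). All 9 exceeded the upper quartile of all coding genes, 23.8%, and 4 of 9 were covered to at least 50%, compared with 9.90% of all coding genes. In each of the 9 genes the 5′ side of the midpoint was covered more than the 3′ side, with medians of 70.9% and 27.6%. The 5′ side was the more covered one in 80.3% of the 15151 coding genes with any peak. The difference was smallest at Synm, with 40.3% and 34.9%, and largest at Vim. Intron 1 was covered completely in Des, Vim and Nes, and least in Synm, with 39.5%. The median was 96.5%, compared with 21.8% over all coding genes with an intron. The all-gene values for windows, gene bodies and intron 1 include coding genes without a TSS peak, whereas all 9 genes had one. The same values among coding genes with a TSS peak were not computed.

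**Figure D3:**
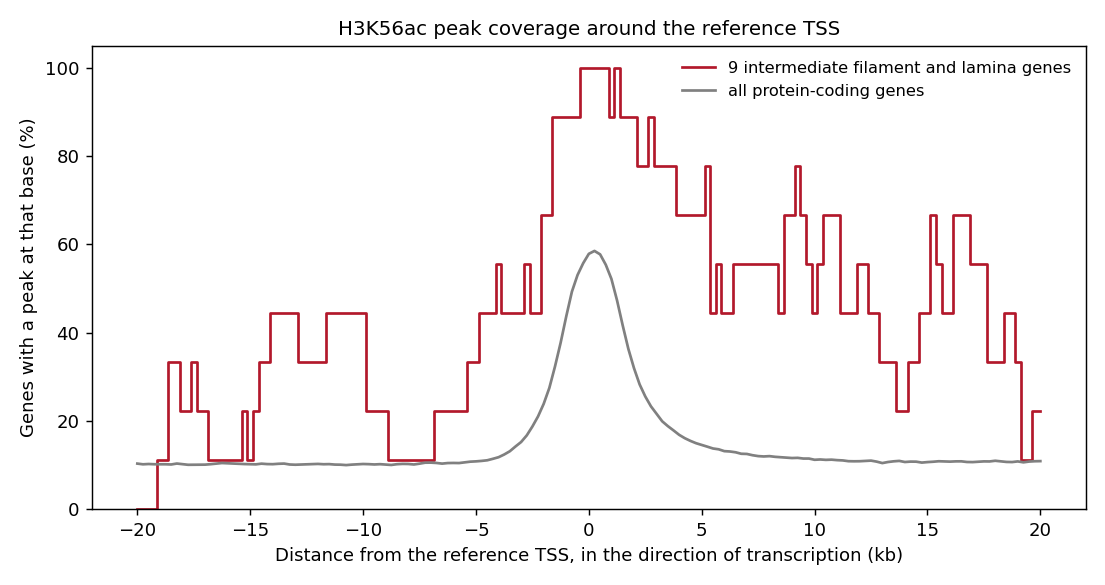
Share of genes (vertical axis, %) with a peak at each distance from the reference TSS (horizontal axis, kb, transcription to the right), in steps of 250 bp, for the 9 genes (red) and all protein-coding genes (grey). The 9 genes reach 100% at the TSS where all genes reach 57.9%, and at 4 kb downstream 66.7% of them have a peak compared with 16.9% of all genes.

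Peaks also lay at many points away from the TSS. At 2 kb downstream of the TSS 8 of 9 genes had a peak (32.0% of all), at 4 kb 6 of 9 (16.9% of all) and at 10 kb 4 of 9 (11.2% of all). These were not always the TSS peak. At 4 kb Vim, Lmnb1 and Plec were still within it, whereas Synm, Lmna and Lmnb2 were covered by separate peaks, and at 10 kb the peaks at Des and Nes lay past the 3′ end of the gene. Upstream, 6 of 9 had a peak at 2 kb (23.9% of all), 2 of 9 at 6 kb (10.5% of all) and 4 of 9 at 10 kb (10.3% of all), the last being Des, Nes, Lmna and Lmnb2. At 14 kb upstream it was again 4 of 9 (10.2% of all), and at 20 kb none of the 9, compared with 10.3% of all genes. With 9 genes, each gene counts for 11.1% in these shares. The shares of all genes include coding genes without a TSS peak.

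Of the 98 exons of the 9 reference transcripts, 38 were touched by a peak, 32 of them lay wholly inside one and 60 had none. Over all coding genes, those without any peak included, 15.1% of exons were touched. The TSS peaks alone touched 18 exons, 5 in Des, 4 in Vim, 3 in Nes and 1 in each of the other 6 genes. Covered exons came first in order in Des (1 to 5), Vim (1 to 4), Nes (all 4, the last in part) and Sync (1 to 4). In Lmna, Lmnb1, Lmnb2 and Plec, runs of bare exons separated covered ones.

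**Figure D4:**
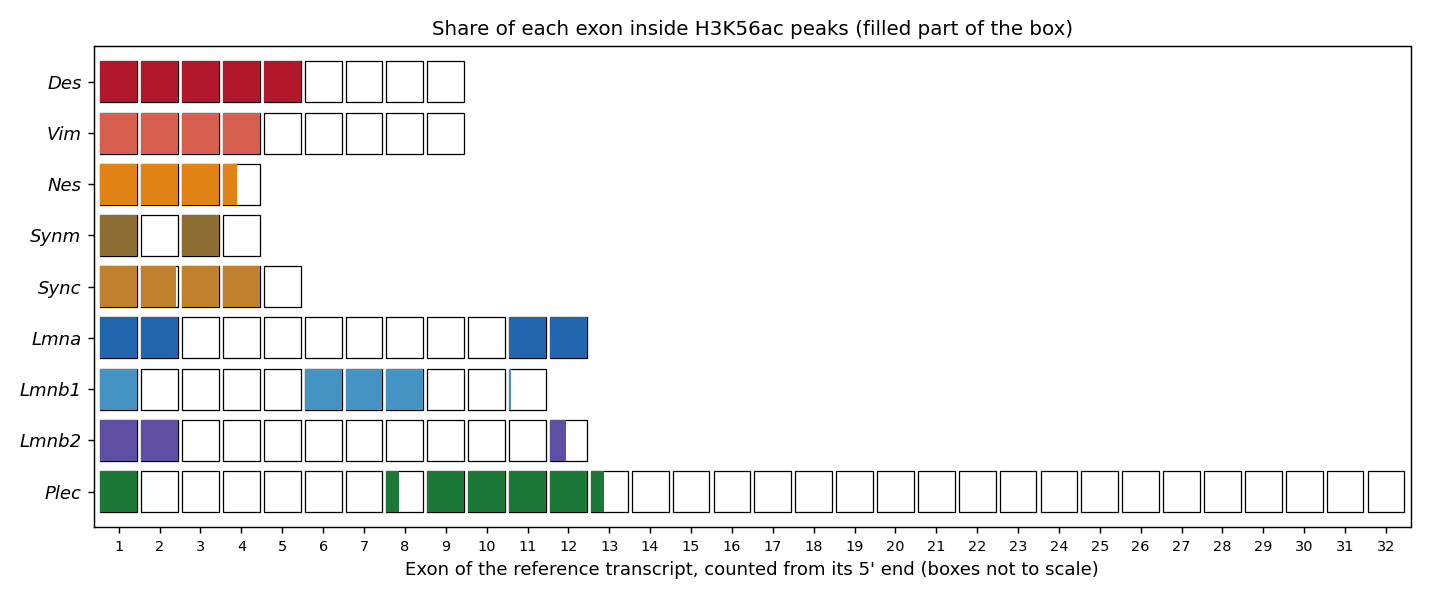
Exons of the reference transcript of each gene, counted from the 5′ end along the horizontal axis and drawn as boxes of equal size, with the filled part of a box showing the share of the exon inside H3K56ac peaks. Exon 1 is filled in all 9 genes, Des is filled to exon 5 and Vim to exon 4, and the last 19 exons of Plec are empty.

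The exons of the family have conserved lengths, which allowed corresponding exons to be compared. Des and Vim share exons of 61, 96, 162, 126, 221 and 44 bp in the same order, as exons 2 to 7 of each, and these encode much of the rod domain. Exons 2, 3 and 4 lay inside the TSS peak in both genes. Exon 5, of 126 bp, was inside the peak in Des and outside it in Vim, and exons 6 and 7 were bare in both. In the lamin genes, the exon of 157 bp was covered in Lmna and bare in Lmnb1 and Lmnb2, and the following exons of 126, 171 and 126 bp were bare in all 3 genes. The next exon, of 221 bp, also occurs in Des and Vim. It was covered in Lmnb1 and bare in Lmna, Lmnb2, Des and Vim. The exon of 125 bp shared by Nes, Synm and Sync was covered in Nes and Sync and bare in Synm.

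Other intermediate filament genes were less covered by number and width of peaks, although the difference was not tested. Of 8 genes for neuronal, glial and lens filaments (Gfap, Prph, Nefl, Nefm, Nefh, Ina, Bfsp1 and Bfsp2), 3 had a promoter peak, none of them as wide as 5 kb. The widest, of 2277 bp at the lens filament gene Bfsp1, was narrower than the widest promoter peak of each of the 9 genes. It also lay over the reference TSS, where it was wider than the TSS peak of Synm, 1768 bp. The median gene body coverage of these 8 genes was 2.01%, although Prph, with 44.3%, exceeded Plec, Synm and Des. Bfsp2, Ina, Nefh and Nefl were among the 5 without one. Of 53 keratin genes, 7 had a promoter peak, with a median of 907 bp among those, and the widest was 7353 bp at Krt10. Among the other 46 were Krt12, Krt13, Krt14 and Krt15. The shares of 3 of 8 and 7 of 53 compare with 67.8% over all coding genes.

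Genes whose products act together with the lamins, with desmin or with plectin were set beside the same shares of all coding genes, 67.8% with a promoter peak and 16.5% with one of at least 5 kb, and beside the median of 3430 bp. All 14 genes for lamin-binding and lamin-processing proteins had a promoter peak, with a median of 4241 bp, and 5 had one of at least 5 kb. The widest was 12796 bp at Syne3, which encodes a nesprin of the nuclear envelope. Of 6 desmin partners and chaperones 5 had a promoter peak, with a median of 5515 bp, and 3 had one of at least 5 kb. The widest was 15100 bp at Cryab, the gene of the chaperone alphaB-crystallin that binds desmin, and Ldb3, a Z-disc protein gene, had none. Of 6 other plakin and linker genes 5 had a promoter peak, with a median of 5038 bp, and 3 had one of at least 5 kb. The widest was 14274 bp at Dst, which encodes dystonin. Evpl, the envoplakin gene of stratified epithelia, had none. The reference TSS lay in a peak in 3 of the 6 plakin genes, 4 of the 6 desmin partners and 13 of the 14 lamin-binding and lamin-processing genes, compared with 57.9% of all coding genes, and with lists of 6 genes no difference from that share can be read. The median gene body coverage of the 3 lists was 11.9%, 43.2% and 14.9% for the lamin, desmin and plakin lists, compared with 46.1% for the 9 genes.

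**Figure D5:**
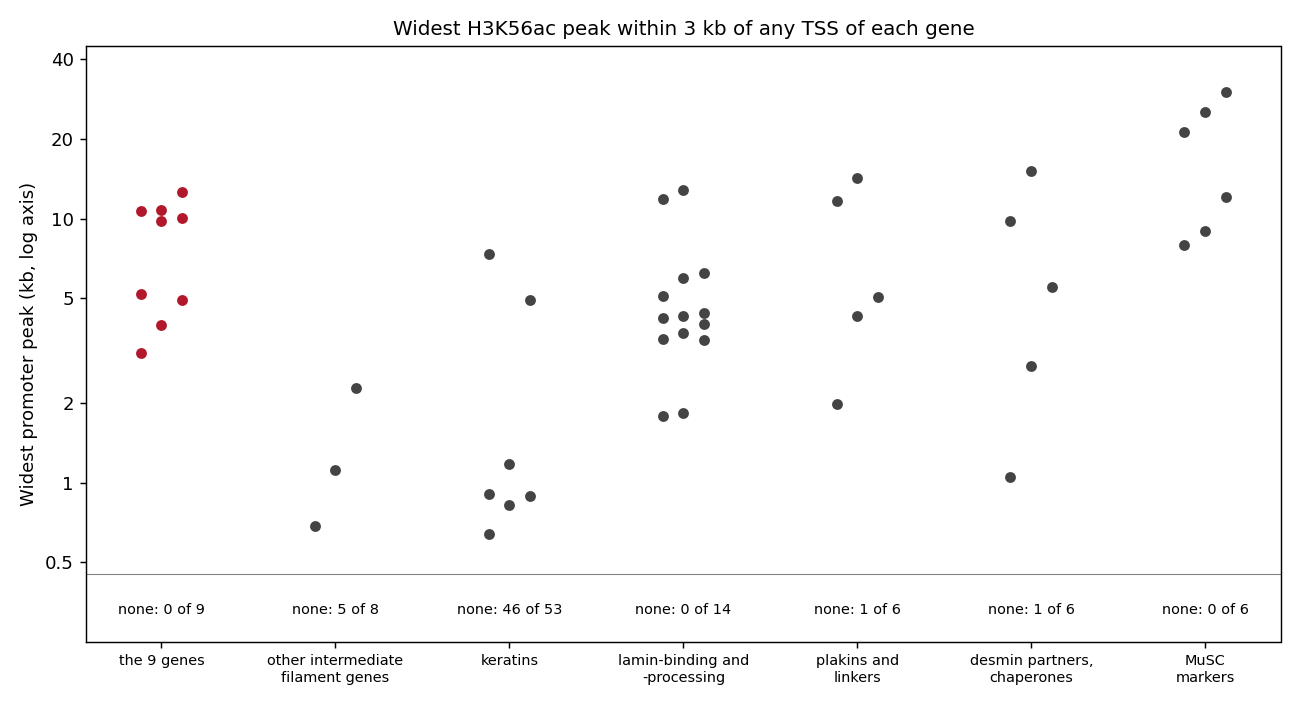
Width of the widest H3K56ac peak within 3 kb of any TSS (vertical axis, kb, log scale), with 1 point per gene, for the 9 genes (red) and 6 comparison lists (grey). Genes without a promoter peak are counted below the line. The 9 genes lie between 3096 and 12592 bp, above all 3 marked genes of the other filament list, and MuSC markers lie between 7972 and 30239 bp.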

How the data were processed

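H3K56ac ChIP-seq of freshly isolated MuSCs comprised 8 libraries sequenced on an Ion Torrent instrument. According to the study's methods, the authors trimmed reads with Trim Galore, aligned them to mm10 with bowtie keeping single alignments, removed duplicates with Picard, called peaks with MACS2, dropped blacklisted regions and merged peaks with GenomicRanges. The submitters' processing notes also name FastQC, SAMtools and deepTools. The deposited list holds 105600 intervals without a value per sample. Its score column is 0 in every row, and 0 columns of per-sample values were left unused. Merging joins intervals of different libraries, so a width describes the union, and single-alignment reads leave repeats without peaks. Which libraries entered the merge is not given in the sources used here.

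Genes, exons and TSSs were those of GENCODE vM21 on GRCm38, the assembly of mm10. No interval passed a chromosome end. A promoter was 3 kb on either side of any TSS of a gene, an overlap was at least 1 bp, and widths were read as deposited. The reference transcript was the APPRIS principal isoform, then the longest coding sequence. Percentiles count the coding genes with a lower value. Motifs and CG dinucleotides were counted in the 250 bases before the RefSeq start, and the 50 bases after it were left out. Python 3.11.15, NumPy 2.4.6, SciPy 1.17.1 and Matplotlib 3.10.9 were used. The interval functions were tested on simulated data. No statistical test was made, as the list has no replicates. The genes and all comparison and marker lists were chosen with earlier results of these data known. Named genes were the 9 genes, coding genes starting in a described window, and in each list the gene with the widest promoter peak and up to 4 without one, first by alphabet. Alternatives tried were promoters of 1 kb, only the reference TSS, joining of peaks under 1 kb apart, peaks of at least 500 bp, other windows, peaks nearest to the genes, exons of all transcripts and summed promoter peaks.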

Additional observations from a re-analysis of the deposited data

How the results depend on the processing

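The 10 alternatives gave 31 recomputed summary values, of which 27 stayed within 1.5 times the reported one. All 9 genes had a promoter peak and a first exon inside a peak under every alternative run for these counts. With the reference TSS only, the median widest promoter peak fell from 9745 to 5967 bp. The number of peaks in the windows was 87 with 20 kb on either side. It was 50 for the gene bodies alone, 148 with 50 kb on either side and 52 after joining peaks less than 1 kb apart. Joining also brought the genes with a promoter peak of at least 5 kb from 6 to 9, and the reference TSS alone gave 5. Joining widens peaks throughout the list, where 44.5% of the gaps are under 1 kb. The share of all coding genes after joining was not computed, so the 9 cannot be set beside 16.5%. The joined promoter peak was 30161 bp at Lmna, 20644 bp at Lmnb1, 9811 bp at Lmnb2 and 8494 bp at Sync, and of 27 recomputed single-gene widths 8 moved by more than 1.5 times.

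No paired analysis was possible because the list holds no values per replicate. The list has no heights, depths or genotypes, so a width cannot be tied to signal strength, to SIRT6 or to a single library, and no value carries a replicate error.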

Other observations

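Many peaks of these windows lay very close together. Of the 78 gaps between neighbouring peaks of the same window, 35 were shorter than 1 kb, or 44.9%, compared with 44.5% of the 105579 gaps of the whole list. The shortest was 12 bp, between a pair of peaks at Gadd45b in the Lmnb2 window, followed by gaps of 17 bp at Plec, 23 bp at Sync, 25 bp at Lmnb2 and 32 bp at Nes. The median width of the 87 peaks was 1393 bp, compared with 974 bp over the whole list.

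Short motifs were searched on both strands in the 250 bases before the RefSeq start, with overlapping matches counted and a palindromic match counted once. The E-box CANNTG, the letters recognised by myogenic bHLH factors among others, occurred 2 times before Des, 4 times before Lmnb2, once each before Synm and Sync, and not before Vim, Nes or Lmna. It occurs in 66.2% of all promoters of the table. The GC box GGGCGG, which occurs in 32.7% of all promoters and contains a CG dinucleotide, was found 3 times before Sync, 2 times each before Des and Nes and once each before Lmna and Lmnb2. TATAAA was found once before Vim (12.4% of all promoters) and before none of the other 6 genes. Matches to the MEF2 consensus, the CArG box and TGANTCA, present in 2.92%, 1.47% and 6.75% of all promoters, were found before none of the 7 genes. These counts refer to the start nearest the reference TSS. The RefSeq start of Vim lies 359 bp downstream of the GENCODE reference TSS. These are letter matches in a short window and say nothing on binding.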
